A study of Mus musculus with 7 samples.

Results

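The 8 genes described here encode the fasciclin-domain proteins periostin (Postn), transforming growth factor beta induced (Tgfbi), stabilin 1 (Stab1) and stabilin 2 (Stab2), the matrix protein matrilin 4 (Matn4), and the integrin subunits alpha-v (Itgav), beta-3 (Itgb3) and beta-5 (Itgb5). They are the rows that carry these symbols in a table of 48440 genes, and all 8 were found. They were selected on the differences between wild-type and PROSER1 KO normalized counts of several of them in these same libraries, so that their values are given as a description. Where a call by the fit over all genes is given for one of them, it is part of that description and no independent support. The measurements are poly(A) RNA-seq of LSK cells, the lineage-negative, Sca1-positive, Kit-positive fraction of mouse bone marrow that holds stem cells and multipotent progenitors. LSK cells were sorted at day 77 from C57BL/6 recipients that had been lethally irradiated (9.5 Gy, split over 2 doses with 3 h between them) and then given unfractionated marrow of wild-type donors (4 libraries) or of constitutive, endonuclease-mediated PROSER1 KO donors (3 libraries). PROSER1 binds TET proteins, the enzymes that oxidize methylated cytosine. All recipients shared the irradiation and transplant, donor age is not given in the sources used here, and no congenic mark is described for these chimeras, so residual recipient cells were not separated from donor cells. The libraries held 33143619 to 45140743 read pairs assigned to genes. The 10 LSK and stem cell markers examined, among them Kit, Ly6a (Sca1) and Mecom, were above the limit of a count of 0 in every library, and their summed normalized count was 80586 to 89255 in wild-type and 82213 to 83712 in PROSER1 KO libraries. The groups did not overlap for 2 of the 10, against 10% of all tested genes, and neither was past the limma call. Mecom had 2683 to 3030 in wild-type and 2160 to 2610 in PROSER1 KO libraries, and Fgd5 had 817 to 957 and 968 to 1068. Proser1 mRNA itself was not lower in the knockout libraries: it was 2088 ± 55.5 normalized counts (SD, n = 4) in wild-type and 2387 ± 67.5 (SD, n = 3) in PROSER1 KO libraries, so the genotype rests on the labels.

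Fasciclin domains are adhesive folds found in secreted and cell-surface proteins. Periostin and TGFBI are secreted matrix proteins that cells can bind through integrins, the paired alpha and beta receptors that tie a cell to its surroundings, and both are known as targets of TGF-beta. Alpha-v pairs with beta-3 or beta-5 to bind such ligands, whereas the stabilins are large scavenger receptors known from sinusoidal endothelium and, for stabilin 1, from macrophages. Matrilin 4 is an adaptor of the extracellular matrix that has been linked to the response of hematopoietic stem cells to stress. Periostin is bound by alpha-v integrin, which hematopoietic stem cells carry.

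The sequence before the start site is shown for Postn, Tgfbi and Matn4, the 3 genes whose PROSER1 KO values all lay above the wild-type values, because TET proteins act on cytosines in CpG dinucleotides. The sequences are from RefSeq (GRCm38.p6), read 5′ to 3′ on the strand of the gene, with CpG dinucleotides in capitals. The Postn stretch is chr3:54360857-54361106 (plus strand, 250 bases, 4 CpG). The Tgfbi stretch is chr13:56609336-56609522 (plus strand, 187 bases, 9 CpG) and stops where the first annotated exon begins. The Matn4 stretch is chr2:164405161-164405410 (minus strand, 250 bases, 8 CpG) and lies within a retained-intron transcript of Rbpjl on the other strand.
Postn: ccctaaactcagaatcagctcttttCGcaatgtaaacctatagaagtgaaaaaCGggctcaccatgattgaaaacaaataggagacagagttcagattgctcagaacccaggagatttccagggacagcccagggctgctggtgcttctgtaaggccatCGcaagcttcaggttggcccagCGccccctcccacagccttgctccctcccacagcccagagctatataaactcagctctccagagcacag
Tgfbi: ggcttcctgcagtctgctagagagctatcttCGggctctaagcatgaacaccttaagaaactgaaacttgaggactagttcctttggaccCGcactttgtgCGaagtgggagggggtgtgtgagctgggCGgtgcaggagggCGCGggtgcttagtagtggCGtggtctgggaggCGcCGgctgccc
Matn4: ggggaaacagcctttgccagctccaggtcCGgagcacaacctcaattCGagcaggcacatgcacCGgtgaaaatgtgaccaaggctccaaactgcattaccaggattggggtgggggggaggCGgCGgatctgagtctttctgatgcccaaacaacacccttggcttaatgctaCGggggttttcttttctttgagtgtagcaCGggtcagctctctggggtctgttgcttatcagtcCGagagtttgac

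Entries of this kind were found for 7 of the 8 genes. In the 250 bases before the RefSeq start site, Postn held 4 CpG, Stab2 held 3, Stab1 held 5, Matn4 held 8, Tgfbi held 15, and Itgav and Itgb5 held 18 each. Across 32851 promoter windows of the same length the median was 6 CpG, and the quartiles were 2 and 16. Postn, Stab1 and Stab2 were thus below the median, and Itgav and Itgb5 above the upper quartile. The TATA box letters TATAAA, searched on both strands, occurred in the Postn window and in no other of the 7, against 12.4% of all windows. CAGACA, letters bound by SMAD proteins, occurred in the Stab2 window only, against 17.1% of all windows. Of that Stab2 window, 83 bases lie after the annotated start of the gene, and the 167 bases before it did not hold these letters. The SMAD palindrome GTCTAGAC occurred in none of the 7, against 0.167% of all windows. DNA methylation was not measured in these libraries, and these matches are a description of the letters only.

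Postn, the gene of periostin (ENSMUSG00000027750, GRCm38 chr3:54361109-54391037, plus strand), was higher in each PROSER1 KO library than in any wild-type library. A normalized count is the number of read pairs on a gene divided by the size factor of its library. Postn had normalized counts of 92.3, 86.5, 70.1 and 64.9 in wild-type libraries 1 to 4, and of 267, 245 and 328 in PROSER1 KO libraries 1 to 3. The lowest PROSER1 KO value was well clear of the highest wild-type value. Wild-type libraries averaged 78.5 ± 13 (SD, n = 4) and PROSER1 KO libraries 280.0 ± 43.4 (SD, n = 3), a ratio of 3.57, and the log2 fold change of the normalized count + 1 was 1.83 (SE 0.19). These values rest on 56 to 96 read pairs per wild-type library and 256 to 342 per PROSER1 KO library. The deviation between libraries of 1 group was 0.23 on the log2 scale, and 66.2% of tested genes varied less. Postn lies on the same chromosome as Proser1, with 879 kb between the annotated spans, so that an effect of the altered chromosome region and one of the missing protein cannot be told apart. In bulk RNA, more cells that express a gene and more RNA per cell cannot be told apart either.

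Tgfbi (ENSMUSG00000035493, chr13:56609523-56639562, plus strand), the gene of the close relative of periostin, started from a higher level. Wild-type libraries 1 to 4 had 533, 573, 530 and 434 normalized counts of it, and PROSER1 KO libraries 1 to 3 had 830, 857 and 749. The groups did not overlap, and wild-type replicate 4 was the lowest of the 7 libraries. Tgfbi averaged 517 ± 59.3 in wild-type (SD, n = 4) and 812 ± 56.4 in PROSER1 KO libraries (SD, n = 3), a ratio of 1.57, with a log2 fold change of 0.65 (SE 0.11). That ratio is close to the fold of 1.5 that a call needed. In every fit that left out 1 library Tgfbi was no longer past the call, with log2 fold changes of 0.57 to 0.71. Only the fit without wild-type replicate 4 (0.57) fell below that fold. In the others the fold stayed above 1.5 and the adjusted p was not under the threshold.

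Matn4 (ENSMUSG00000016995, chr2:164389393-164405160, minus strand) was higher in PROSER1 KO libraries on average but varied widely. In wild-type libraries 1 to 4 it reached 55.8, 17.1, 27.6 and 77.7 normalized counts, and in PROSER1 KO libraries 1 to 3 it reached 135, 82.9 and 139. The groups did not overlap, but PROSER1 KO replicate 2 and wild-type replicate 4 were almost equal. The average was 44.5 ± 27.5 in wild-type (SD, n = 4) and 119 ± 31.2 in PROSER1 KO libraries (SD, n = 3), a ratio of 2.67, and the log2 fold change was 1.58 (SE 0.48). Its deviation within groups was 0.79 on the log2 scale, and 94.2% of tested genes varied less. Wild-type libraries held 19 to 67 read pairs of Matn4 and PROSER1 KO libraries 98 to 145. Matn4 shares 149 exon bases, 2.88% of its exons, with Rbpjl on the other strand, whose normalized counts were 0.85 to 25.9. The kit marks strand, but whether counting used it is not given in the sources used here, so reads in that stretch are uncertain. Cxcr4, the chemokine receptor that matrilin 4 has been tied to in stem cells, had 3603 ± 285 normalized counts (SD, n = 4) in wild-type and 3837 ± 478 (SD, n = 3) in PROSER1 KO libraries, with overlapping groups and a log2 fold change of 0.09 (SE 0.090).

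Across the 8 genes, limma called 2 (Postn and Tgfbi) at an adjusted p under 0.05 and a fold change above 1.5, and both were higher in PROSER1 KO libraries. Over all 16251 genes tested, 0.258% were called, 0.123% as higher and 0.135% as lower. On read pairs recovered from the normalized counts, edgeR called the same 2 genes, where it called 0.246% of all genes it tested. DESeq2 called 3, with Matn4 as the third, where it called 0.865% of all genes it tested (0.42% as higher). The groups did not overlap for 3 of the 8 genes (Postn, Tgfbi and Matn4), all higher, against 10% of tested genes in both directions, 5.17% higher and 4.83% lower. A positive log2 fold change was found for 7 of the 8, against 50.6% of tested genes. All of these comparisons are those that chose the genes. All 8 genes passed the filter on low values, a mean normalized count of at least 10.

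**Figure D1:**
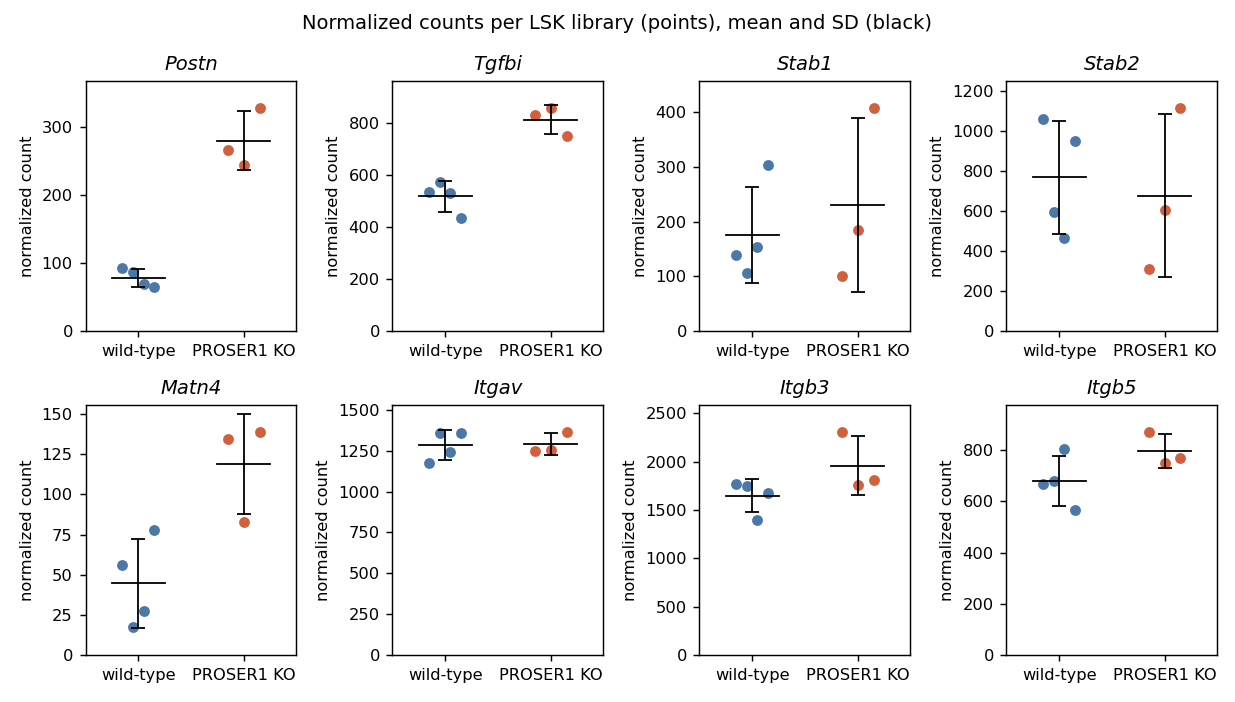
Normalized count of each of the 8 genes (vertical axes start at 0) in 4 wild-type (blue) and 3 PROSER1 KO (red) LSK libraries. Points are libraries, and black bars give the mean and SD. The groups are separate for Postn, Tgfbi and Matn4, where the closest pair is 77.7 and 82.9 for Matn4, and overlap for the other 5 genes.

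The stabilins varied more between libraries of 1 genotype than between genotypes. Stab1 (ENSMUSG00000042286, chr14:31139013-31168641, minus strand) had normalized counts of 139, 105, 154 and 304 in wild-type libraries 1 to 4 and of 100.1, 185 and 408 in PROSER1 KO libraries 1 to 3. PROSER1 KO replicate 3 and wild-type replicate 4 were the highest, PROSER1 KO replicate 1 was the lowest, and the wild-type range lay within the PROSER1 KO range. Stab1 averaged 176 ± 87.8 in wild-type (SD, n = 4) and 231 ± 159 in PROSER1 KO libraries (SD, n = 3), with a log2 fold change of 0.28 (SE 0.47) that became -0.25 without PROSER1 KO replicate 3. Stab2, the hyaluronan-clearing relative (ENSMUSG00000035459, chr10:86841198-87008025, minus strand), had 1061, 596, 466 and 949 in wild-type libraries 1 to 4 and 312, 602 and 1115 in PROSER1 KO libraries 1 to 3. PROSER1 KO replicate 3 was again the highest and PROSER1 KO replicate 1 the lowest. Stab2 had means of 768 ± 283 (SD, n = 4) and 676 ± 406 (SD, n = 3) and a log2 fold change of -0.29 (SE 0.41), which became 0.17 without PROSER1 KO replicate 1. The deviations within groups, 0.81 for Stab1 and 0.72 for Stab2 on the log2 scale, exceeded those of 94.6% and 92.7% of tested genes.

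Some of the endothelial genes examined shared their highest libraries with Stab1. The vascular cadherin gene Cdh5 had normalized counts of 163, 33.4, 136 and 231 in wild-type libraries 1 to 4 and of 106, 182 and 258 in PROSER1 KO libraries 1 to 3. The libraries highest for Stab1, PROSER1 KO replicate 3 and wild-type replicate 4, were also the pair highest for Cdh5, Kdr, Flt4, Plvap and Cldn5, which are 5 of the 8 endothelial markers examined, against 7.24% of all tested genes. Clec14a, Robo4 and Lyve1 did not share that pair, and Lyve1, a marker of lymphatic and sinusoidal endothelium, was at 2.88 normalized counts or less in every library. The summed normalized count of the 8 markers was 1743 to 2399 in wild-type and 1997 to 2868 in PROSER1 KO libraries, most of it from Robo4, which had 1239 to 1500 and is also expressed by hematopoietic stem cells. Among the macrophage markers, Vcam1 and Cd68 had the same highest pair, 2 of 10, and the list summed to 1340 to 1755 in wild-type and 1584 to 1829 in PROSER1 KO libraries. Plasma cell genes such as Jchain summed to 170818 to 428871 in wild-type and 199947 to 298722 in PROSER1 KO libraries, and 3 of those 7 genes had the same highest pair. Stab2 itself did not have that highest pair: PROSER1 KO replicate 3 had 1115, wild-type replicate 1 had 1061 and wild-type replicate 4 had 949. The part of these cell types in the stabilin values was not tested. Stab1 shares 112 exon bases, 1.09% of its exons, with Nt5dc2 on the other strand, a more abundant gene at 1353 to 1648 normalized counts. Of the 5 genes that overlap Stab2, Gm16268 shares 141 exon bases with it and did not exceed 0.96 normalized counts, Gm16271 had 3.13 to 13.5 and shares no exon base, and Gm16280, Gm16270 and Gm16269 were at 0 in every library.

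**Figure D2:**
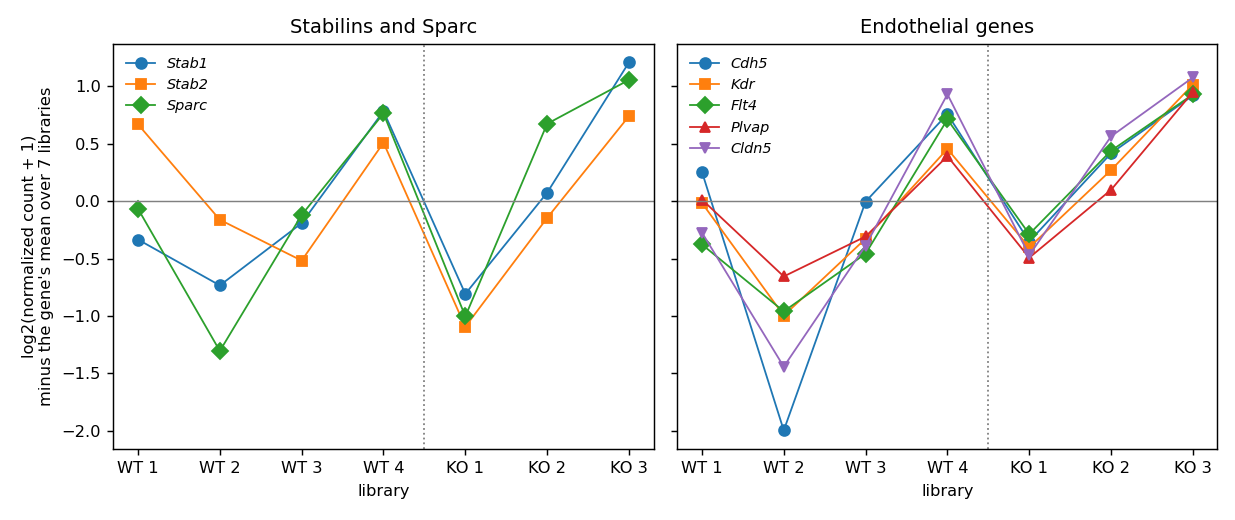
Values of Stab1, Stab2 and Sparc (left) and of 5 endothelial genes (right) in each of the 7 libraries, as log2(normalized count + 1) minus the mean of that gene over the libraries. WT stands for wild-type and KO for PROSER1 KO, the dotted line divides the genotypes, and the lines only join the values of 1 gene. All 8 genes are highest in KO 3, and each is lowest in WT 2 or KO 1. The 5 endothelial genes shown are those of the examined markers whose highest pair was KO 3 and WT 4. Their shared high values were thus fixed by that choice, and Clec14a, Robo4 and Lyve1 are not shown.

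The values of the 3 integrin subunits overlapped between the genotypes. Itgav (ENSMUSG00000027087, chr2:83724397-83806916, plus strand), which encodes the shared alpha chain, had normalized counts of 1173, 1361, 1244 and 1360 in wild-type libraries 1 to 4 and of 1249, 1257 and 1368 in PROSER1 KO libraries 1 to 3. These ranges overlapped almost fully, with means of 1284 ± 92.4 (SD, n = 4) and 1291 ± 66.8 (SD, n = 3) and a log2 fold change of 0.01 (SE 0.073). Itgav shares 634 exon bases, 5.90% of its exons, with Gm13684 on the other strand, which did not exceed 1.92 normalized counts, and Dnmt3l-ps1, which also overlaps it, was at 0 in every library. Itgb5 (ENSMUSG00000022817, chr16:33829665-33949338, plus strand), whose product is known to pair with alpha-v alone, had 667, 681, 806 and 568 in wild-type libraries 1 to 4 and 873, 750 and 771 in PROSER1 KO libraries 1 to 3. Wild-type replicate 3 lay among the PROSER1 KO values. The Itgb5 means were 680 ± 97.5 (SD, n = 4) and 798 ± 66.0 (SD, n = 3), with a log2 fold change of 0.24 (SE 0.12).

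Itgb3 (ENSMUSG00000020689, chr11:104608000-104670476, plus strand) encodes the beta chain that pairs with alpha-v and, on megakaryocytes and platelets, with the product of Itga2b. Wild-type libraries 1 to 4 held 1765, 1747, 1394 and 1680 normalized counts of Itgb3, against 2312, 1760 and 1809 in PROSER1 KO libraries 1 to 3. PROSER1 KO replicate 1 stood above the other 6 libraries, and PROSER1 KO replicate 2 lay just under the highest wild-type value. Itgb3 averaged 1646 ± 172 in wild-type (SD, n = 4) and 1960 ± 305 in PROSER1 KO libraries (SD, n = 3), and the log2 fold change was 0.25 (SE 0.11), or 0.12 without PROSER1 KO replicate 1. Of the 9 megakaryocyte and platelet markers, 6 were also highest in that library (Pf4, Ppbp, Gp1bb, Gp9, Itga2b and Vwf), against 15.5% of all tested genes. The summed normalized count of the 9 did not overlap between the genotypes, although none of the 9 was separate by itself. Wild-type libraries spanned 7326 to 9254 and PROSER1 KO libraries 9516 to 12378. Most of that sum was Itga2b, at 4627 to 5684 in wild-type and 5425 to 6803 in PROSER1 KO libraries. Vwf followed, at 1103 to 2914 in wild-type and 2509 to 4231 in PROSER1 KO libraries. Gp6, a platelet receptor, was at 0 in 6 of 7 libraries. The part of these cells in the Itgb3 values was not tested.

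**Figure D3:**
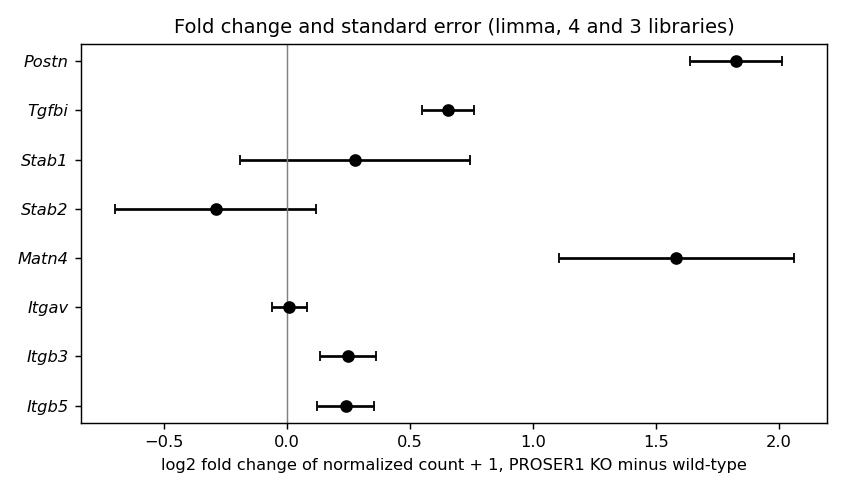
Log2 fold change of the normalized count + 1 (PROSER1 KO minus wild-type) of the 8 genes, from limma over 4 and 3 libraries. Bars are 1 standard error, and the vertical line is no change. Postn (1.83), Matn4 (1.58) and Tgfbi (0.65) lie to the right, while the bars of Stab1, Stab2 and Itgav cross the line.

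To compare levels between genes, normalized counts were divided by the length of the merged exons in kilobases. That length counts every annotated exon base once, 8702 bases for Postn, 3771 for Tgfbi and 5174 for Matn4. Which transcripts these cells express was not examined, so the order rests on this choice of length. In wild-type libraries the level per kilobase was 279 ± 29.2 for Itgb3, 192 ± 27.4 for Itgb5, 137 ± 15.7 for Tgfbi, 119.6 ± 8.60 for Itgav and 87.7 ± 32.3 for Stab2 (SD, n = 4). Stab1 followed at 17.1 ± 8.53, Postn at 9.02 ± 1.5 and Matn4 at 8.61 ± 5.31 (SD, n = 4). The ranges of neighbours in this order overlapped for Tgfbi with Itgav, Itgav with Stab2, Stab1 with Postn and Postn with Matn4, so that these pairs could not be ordered beyond their spread. By this measure Tgfbi was at the level of the receptor chain Itgav, and Postn and Matn4 were below all 3 receptor chains. A gap of 5.14 times lay between the means of Stab2 and Stab1.

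In PROSER1 KO libraries Postn reached 32.2 ± 4.98 per kilobase (SD, n = 3), Matn4 23.0 ± 6.04 and Stab1 22.5 ± 15.5 (SD, n = 3). The Postn range lay above that of Matn4, within that of Stab1, and overlapped that of Stab2, at 77.2 ± 46.4. Tgfbi reached 215 ± 15, a range that overlapped that of Itgb5 at 225 ± 18.6, while Itgb3 stayed highest at 332 ± 51.7 and Itgav was at 120.2 ± 6.22 (SD, n = 3). Of the summed level of the 4 fasciclin genes, Postn made up 3.61% ± 0.534 in wild-type (SD, n = 4) and 9.31% ± 1.07 in PROSER1 KO libraries (SD, n = 3), with no overlap. Tgfbi was 15.4 ± 1.68 times as high as Postn per kilobase in wild-type and 6.84 ± 1.44 times in PROSER1 KO libraries. The ratio of Itgb3 to Itgav per kilobase was 2.34 ± 0.292 and 2.78 ± 0.520, and that of Itgb5 to Itgav was 1.61 ± 0.297 and 1.87 ± 0.214, with overlapping groups in both. The ratio of Stab2 to Stab1 was 5.70 ± 2.59 in wild-type and 3.56 ± 0.316 in PROSER1 KO libraries, and ran from 3.55 to 8.94 among the wild-type libraries alone.

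**Figure D4:**
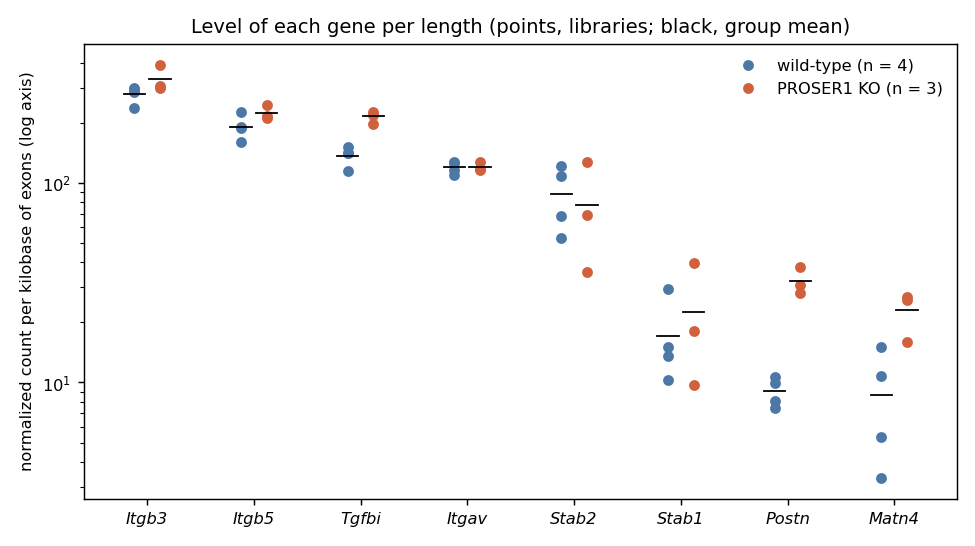
Normalized count per kilobase of merged exons (log axis) of the 8 genes, ordered by the wild-type mean. Blue points are 4 wild-type and red points 3 PROSER1 KO libraries, and black bars are group means. Itgb3 is highest in both groups, with means of 279 and 332, and Postn moves from 9.02 to 32.2.

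The wider pathway was described from 6 lists that hold 118 genes, of which 87 could be tested. By limma 0 of the 87 were past the call, 9 had an unadjusted p under 0.05 against 9.73% of all tested genes, and 8 of those 9 were higher in PROSER1 KO libraries. Their median log2 fold change was 0.04, that of all tested genes was 0.0015, and 58 of the 87 were positive against 50.6% of all. DESeq2 on the recovered read pairs called 2 (Itgb6 and Smoc1), where it called 0.865% of all genes it tested (0.42% as higher), and the edgeR quasi-likelihood test called 1 (Itgb6), where it called 0.246% (0.129% as higher). Both genes were higher in PROSER1 KO libraries.

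Among the other integrin subunits, 20 of 23 genes were tested, 4 had an unadjusted p under 0.05, all higher, and the median log2 fold change was 0.06. Itgb6 (ENSMUSG00000026971, chr2:60598292-60722643, minus strand) encodes the beta-6 chain, an epithelial partner of alpha-v known for releasing active TGF-beta. The normalized counts of Itgb6 were 16.3, 19.8, 16.1 and 22.0 in wild-type libraries 1 to 4, against 83.5, 62.6 and 50.9 in PROSER1 KO libraries 1 to 3. The groups were far apart, at 18.6 ± 2.86 (SD, n = 4) and 65.7 ± 16.5 (SD, n = 3), with a log2 fold change of 1.75 (SE 0.29). The Benjamini-Hochberg adjusted p was 0.0521 by limma, 0.0399 by edgeR and 0.000527 by DESeq2, so that the call depended on the tool. Even so, its level per kilobase was only 2.61 in wild-type and 9.23 in PROSER1 KO libraries, far under those of Itgb3 and Itgb5. Itgb8, another partner of alpha-v, did not exceed 2.88 normalized counts in any library. Itga8 had a log2 fold change of -0.92 (SE 0.57, limma adjusted p = 0.642). Itgb1, the most abundant of the list per kilobase, had 10472 ± 455 normalized counts (SD, n = 4) in wild-type and 10720 ± 713 (SD, n = 3) in PROSER1 KO libraries, with a log2 fold change of 0.03 (limma adjusted p = 0.904).

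Among the matricellular proteins, secreted regulators of adhesion that include the other matrilins, 10 of 21 genes were tested, 2 had an unadjusted p under 0.05, and the median log2 fold change was -0.21. Smoc1, a calcium-binding matrix protein, had 56.7, 73.0, 57.5 and 49.8 normalized counts in wild-type libraries 1 to 4 and 86.6, 151 and 132 in PROSER1 KO libraries 1 to 3. The groups did not overlap, and its log2 fold change of 1.02 (SE 0.24) had an adjusted p of 0.183 by limma and 0.0152 by DESeq2. Ccn3, a secreted CCN family protein, had a log2 fold change of 1.70 (SE 0.63, limma adjusted p = 0.414) at means of 5.85 and 18.9 normalized counts. Sparc, which binds collagen, was the most abundant of the tested genes of the list per kilobase, at 165 ± 89.0 (SD, n = 4) and 232 ± 135 (SD, n = 3) normalized counts, and like Stab1 and Cdh5 was highest in PROSER1 KO replicate 3 and wild-type replicate 4. Of the relatives of Matn4, Matn2 had 175 to 283 normalized counts in wild-type and 172 to 190 in PROSER1 KO libraries, Matn1 did not exceed 3.48, and Matn3 was at 0 in every library.

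Among the other matrix ligands of alpha-v integrins, 9 of 15 genes were tested and 1 had an unadjusted p under 0.05, with a median log2 fold change of 0.10. That gene was fibronectin (Fn1), with 73.3 ± 20.7 normalized counts (SD, n = 4) in wild-type and 112 ± 17.2 (SD, n = 3) in PROSER1 KO libraries, a log2 fold change of 0.65 (SE 0.26) and a limma adjusted p of 0.455. Von Willebrand factor (Vwf), which platelets and endothelium also make, had a log2 fold change of 0.66 (SE 0.31, limma adjusted p = 0.528). Egfl7, a secreted vascular protein, was the most abundant per kilobase, at 3187 ± 207 (SD, n = 4) and 3421 ± 333 (SD, n = 3) normalized counts. Vitronectin (Vtn), the classic ligand, did not exceed 0.90 normalized counts, and the 3 fibrinogen genes Fga, Fgb and Fgg were at 0 in every library.

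Inside the cell, adaptor proteins link integrins to the cytoskeleton. Of the integrin adaptors and signalling genes, 16 of 18 were tested, 1 had an unadjusted p under 0.05, and the median log2 fold change was 0.03. Talin 1 (Tln1), which switches integrins on, was the most abundant per kilobase, at 42990 ± 1422 (SD, n = 4) and 42816 ± 852 (SD, n = 3) normalized counts, with a log2 fold change of -0.0055. The largest differences in the list were those of the scarce genes Fermt2 (0.33, SE 0.57) and Bcar1 (0.22, SE 0.59), with limma adjusted p of 0.903 and 0.939.

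Of the genes of TGF-beta activation and signalling, 22 of 23 were tested, 1 had an unadjusted p under 0.05, and the median log2 fold change was 0.02. Tgfb1, the most abundant of the list per kilobase, had 9890 ± 1035 (SD, n = 4) and 10044 ± 469 (SD, n = 3) normalized counts, with a log2 fold change of 0.03 (limma adjusted p = 0.946). The latent TGF-beta binding proteins Ltbp2 (log2 fold change 1.65, SE 0.98) and Ltbp1 (0.59, SE 0.46) differed most, with limma adjusted p of 0.625 and 0.720 and wide spread: Ltbp2 ran from 1.80 to 31.0 normalized counts in wild-type and from 11.8 to 58.4 in PROSER1 KO libraries. Smad7, a feedback target of the pathway, had a log2 fold change of -0.15 (SE 0.14, limma adjusted p = 0.773), with overlapping groups. Of the scavenger receptors, 10 of 18 were tested, 0 had an unadjusted p under 0.05, and the median log2 fold change was 0.04. Scarf2 (-0.49, SE 0.46) and Cd36 (-0.37, SE 0.21) differed most, with limma adjusted p of 0.780 and 0.613, and Cd44, a hyaluronan receptor, was the most abundant per kilobase at 7930 ± 356 (SD, n = 4) and 8045 ± 156 (SD, n = 3) normalized counts.

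**Figure D5:**
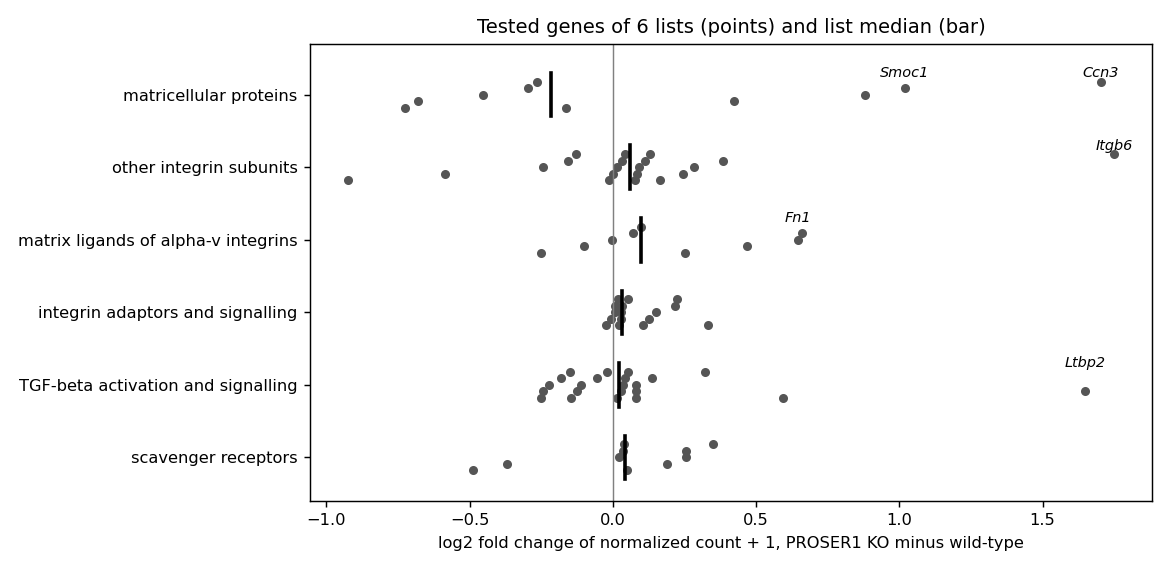
Log2 fold change of the normalized count + 1 (PROSER1 KO minus wild-type) of the 87 tested genes in 6 lists, with the list on the vertical axis. Each point is 1 gene, placed at staggered heights for legibility, and the black bar is the median of the list. The medians run from -0.21 to 0.10, and Itgb6 (1.75), Ccn3 (1.70), Ltbp2 (1.65) and Smoc1 (1.02) lie farthest to the right.

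Genes with a profile near that of the 3 separate genes were ranked by the root mean square difference of log2 values, each centred on its own mean, over the 7 libraries. The difference between the genotypes is part of each profile, so that genes with a like fold change rank near, and the ranks are a description only. Nearest to Postn were Upk1b (0.364), Dpysl3 (0.367) and Itgb6 (0.371), in log2 units. Upk1b had normalized counts of 7.03 ± 2.61 (SD, n = 4) and 20.2 ± 5.85 (SD, n = 3), and Dpysl3 of 8.68 ± 4.64 and 29.2 ± 4.64. Both were scarce in wild-type replicate 4, where Upk1b (3.48) was at the limit of a count of 0 and Dpysl3 had 4.64. Nearest to Tgfbi were Cc2d2a (0.111), Gm7816 (0.120) and Gbp3 (0.120), of which Gbp3, an interferon-induced GTPase of a multigene family, had 1974 ± 118 (SD, n = 4) and 2724 ± 77.0 (SD, n = 3) normalized counts. Nearest to Matn4 were Gm37509 (0.326), Nrcam (0.340) and Xlr (0.351), none above 73.9 normalized counts in any library, and Xlr belongs to a family of similar copies among which reads can be uncertain.

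Stromal, osteoblast and monocyte markers were examined beside the matrix genes. The 11 stromal and osteoblast markers summed to 2222 to 3305 normalized counts in wild-type and 3044 to 3454 in PROSER1 KO libraries, and 0 of 11 were separate by themselves. Most of that sum was Pdgfrb, at 1855 to 2890 in wild-type and 2759 to 2901 in PROSER1 KO libraries, whereas Col1a1 ran from 19.5 to 59.5 over all libraries and the osteoblast markers Sp7 and Bglap did not exceed 2.88 and 8.11. The niche chemokine Cxcl12 ran from 3.61 to 209 in wild-type and from 53.3 to 357 in PROSER1 KO libraries. The 7 monocyte markers summed to 7999 to 9298 and 8825 to 9129, and 3 of 7 were separate, against 10% of all tested genes. Ms4a6c (838 to 1138 and 1339 to 1371) and Csf1r (424 to 631 and 657 to 870) were higher in PROSER1 KO libraries. Ccr2 (638 to 1191 and 551 to 624) was lower in PROSER1 KO libraries, and none of the 3 was past the limma call. The part of such cells in the Postn, Tgfbi and Matn4 values was not tested.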

How the data were processed

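Paired-end reads were trimmed with Trimmomatic, mapped with STAR to mm10 and counted as read pairs with featureCounts. The methods name GENCODE vM25, whereas the header of the ID column in the file names gencode.vM10. The deposited signal values are normalized counts, which the authors made by dividing read pairs per gene by 1 DESeq2 size factor per library; undoing this gave whole reads for 100% of values, with a tolerance of 0.01. Depth was 33143619 to 45140743 read pairs per library, and the limit of a count of 0 was taken as 3 read pairs (2.54 to 3.48 normalized counts).

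Values were tested with limma 3.58.1 (R 4.3.3, lmFit and eBayes with a trend) on log2(normalized count + 1), with genotype alone, over the 16251 genes with a mean of at least 10. The scale understates changes of scarce genes. A call needed a Benjamini-Hochberg adjusted p under 0.05 over all tested genes and a fold change above 1.5. The recovered read pairs were tested with edgeR 4.0.16 (quasi-likelihood) and DESeq2 1.42.0. Scripts were tested on simulated data. Positions are those of GENCODE M21 (GRCm38), which matched 48058 gene IDs. Overlaps of exons come from the same annotation. Replicates are labelled as biological.

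The members and lists were chosen with earlier results of these data known. Named were the 8 genes, Proser1, Cxcr4, genes overlapping the 8, in each list the genes past the call or else the 2 tested genes that differed most, the most abundant tested gene of each list, and the 3 nearest profiles of Postn, Tgfbi and Matn4. Other genes were named after their values were seen: the relatives of Matn4, Itgb8, Vtn, the fibrinogen genes, Smad7 and individual markers of LSK and other cells. Alternatives were the pseudocount (0.1 or 10), the filter (none or a mean of 50), eBayes without a trend or robust, quantile and TMM normalization, the count models, a block on replicate number, and each library left out.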

Additional observations from a re-analysis of the deposited data

Results flagged for a closer look

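In the wild-type group, 15 sets of 4 values (the 8 genes and the sums of the cell type lists) were examined for 1 library far from the other 3 by Dixon's test at the 95% level, which chance passes in about 1 of 20 groups. The summed normalized count of the stromal and osteoblast markers was 3305 in wild-type replicate 3 and 2222 to 2314 in the other 3 wild-type libraries. The summed normalized count of the macrophage markers was 1755 in wild-type replicate 4 and 1340 to 1391 in the other 3. None of the 8 genes had such a library in the wild-type group.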

How the results depend on the processing

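The log2 fold changes of all 8 genes stayed within 1 within-group SD of the reported value in all 144 alternative values. Of the 8 genes, 2 were called as reported (Postn and Tgfbi) and 1 (Postn) with a minimum mean of 50, without the trend, with quantile or TMM normalization, with the replicate block, and in every fit that left out 1 library (range 1 to 1). Postn was called in 18 of 18 alternatives, with log2 fold changes of 1.71 to 1.92, Tgfbi in 6, and Matn4 in 1 (DESeq2), with log2 fold changes of 1.21 to 1.92. The sign turned for Stab1 without PROSER1 KO replicate 3 (-0.25), for Stab2 without PROSER1 KO replicate 1 (0.17) and for Itgav in 3 of the fits that left out a library (lowest -0.03), none of them called. Of the 87 list genes, 0 were called as reported, 1 (Itgb6) with a pseudocount of 10, robust estimates, quantile normalization or edgeR, and 2 with DESeq2. Over all genes, 42 were called as reported, 17 without the trend, 80 with robust estimates, 165 with DESeq2, and 23 to 42 with 1 library left out, 23 of them without PROSER1 KO replicate 2. The cause was not tested. Same-numbered libraries of the 2 genotypes did not deviate together (r of 0.023, 0.058 and -0.11 over genes). Differently numbered libraries had r of -0.13 to 0.14. Deviations from the means of 4 and 3 libraries cannot exclude a pairing, so none was shown and none excluded. The replicate block called 35 genes. Matn4 had as few as 19 read pairs in a library, and the part of depth in its spread was not tested.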
